A study of Mus musculus with 16 samples.

Results

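The genes examined were the 7 cyclin-dependent kinase (CDK) inhibitor genes of the mouse, taken by symbol from a table of 24091 genes, in which each symbol occurred once. They form the Cip/Kip family, with the 3 genes Cdkn1a, Cdkn1b and Cdkn1c, and the INK4 family, with the 4 genes Cdkn2a, Cdkn2b, Cdkn2c and Cdkn2d. Of the 7, 6 had a mean of at least 1 TPM, a relative transcript abundance scaled to transcript length and library total, over the 9 RNA libraries and entered the tests, and Cdkn2a did not. The RNA came from caecal epithelial cells of C57BL/6 mice, with 3 libraries in each of 3 groups. In the first group the mice were given ampicillin, an antibiotic, at 1 g/L together with the sweetener Splenda at 10 g/L, and were gavaged on day 7 with tributyrin, the butyrate ester of glycerol. In the second they were given the same ampicillin and Splenda and received a mock gavage of 25% glycerol. In the third, the vehicle group, they were given Splenda without ampicillin and received the mock gavage. Tissue was taken 6 h after the gavage in all 3 groups. All groups shared Splenda, and both mock groups received glycerol.

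CDK inhibitors are the brakes of the cell cycle. INK4 proteins bind CDK4 and CDK6 and keep them from pairing with D-type cyclins, whereas Cip/Kip proteins bind complexes of cyclins with CDKs, above all those of CDK2, so that the retinoblastoma protein stays active and E2F factors stay silent. In the intestine, cells divide in the crypt and stop dividing as they move to the surface, where p21, the Cdkn1a protein, is abundant. Butyrate, which bacteria make from fibre in the caecum, inhibits histone deacetylases and is known to raise the human gene for p21 in colon cancer cell lines. The gene for p15, Cdkn2b, is known to be induced by TGF-beta and to be repressed by MYC.

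All 8 epithelial markers examined were present, among them Krt8, a keratin of simple epithelia, at 3569 ± 183 TPM in the ampicillin group with mock gavage and 4707 ± 471 TPM in the vehicle group (SD, n = 3 each). Of these 8, 5 fell and 0 rose for ampicillin against vehicle, where 10.2% of all genes tested fell and 11.0% rose. Over the 12155 genes tested, log2 values of 2 libraries of a group correlated at 0.976 to 0.981 across genes, which are not independent replicates. TPM keeps no record of sequencing depth, which is therefore unknown here. One short transcript entry, Mir6236, took 0.705% to 0.863% of the TPM in the tributyrin libraries, 1.24% to 4.04% in the ampicillin libraries with mock gavage and 2.14% to 4.48% in the vehicle libraries. Whether each library stands for its own animal is not stated in the labels, so the p-values reflect only how these libraries vary, which may be technical. Fold changes are given as differences of log2(TPM + 1) with their SE, which understates the change of genes with low values, and a gene is called where its adjusted p from limma, with Benjamini-Hochberg adjustment over all genes tested, is under 0.05.

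Cdkn1a was the most abundant of the 7 transcripts in every library and Cdkn2a the least. TPM is scaled to transcript length, so these levels can be set side by side. In vehicle libraries the order of mean levels was Cdkn1a, Cdkn1b, Cdkn2b, Cdkn2c, Cdkn2d, Cdkn1c and Cdkn2a, and no neighbours in that order overlapped in their ranges over the 3 libraries. With ampicillin and mock gavage Cdkn2b stood above Cdkn1b, with no overlap, and the ranges of Cdkn2d and Cdkn1c overlapped. With ampicillin and tributyrin the ranges of Cdkn1b and Cdkn2b overlapped, as did those of Cdkn2d and Cdkn1c. By mean level Cdkn1a lay above 94.1% of the genes tested in the ampicillin group with mock gavage and above 95.6% in the vehicle group.

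**Figure D1:**
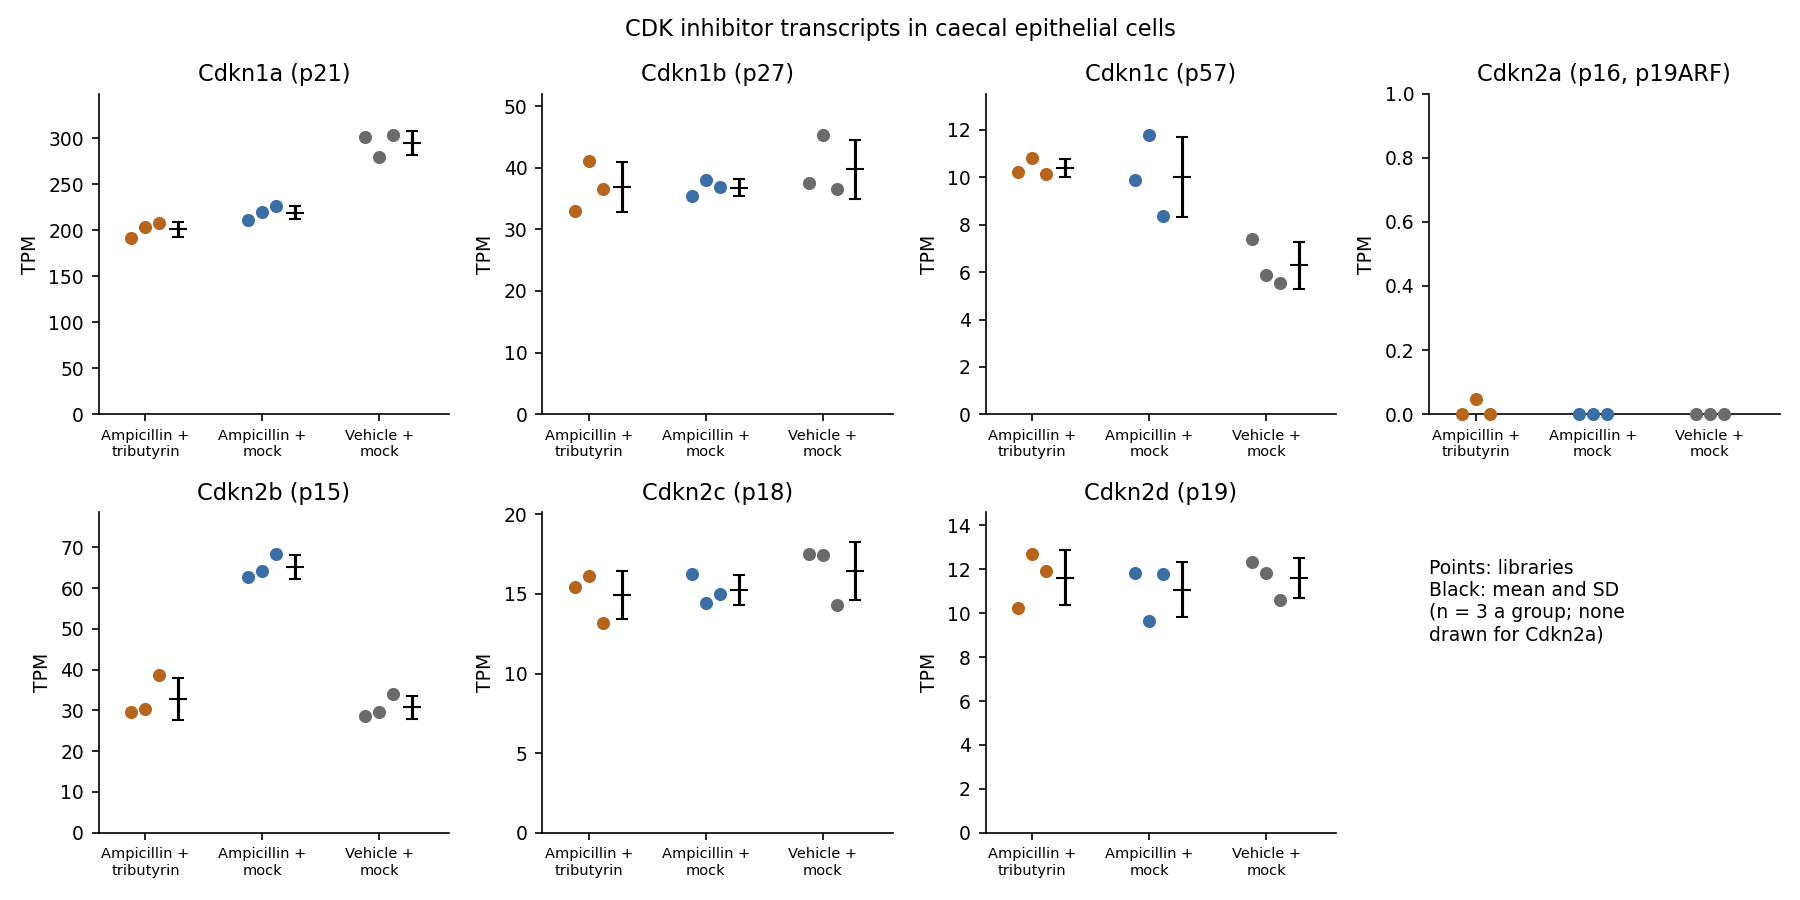
TPM of each CDK inhibitor gene in the 9 libraries, grouped as ampicillin with tributyrin, ampicillin with mock gavage and vehicle with mock gavage, with points for libraries and black marks for the mean and SD of 3 libraries, not drawn for Cdkn2a. Cdkn2b stands apart in the ampicillin libraries with mock gavage, from 62.7 to 68.4 TPM, while all 6 ampicillin libraries of Cdkn1a lie below the 3 vehicle libraries.

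The gene with the largest changes among the 7 was Cdkn2b, which encodes p15. It was at 62.7, 64.1 and 68.4 TPM in the ampicillin libraries with mock gavage, against 28.6, 29.6 and 34.0 TPM in the vehicle libraries. All 3 ampicillin values lay far above all 3 vehicle values, and the mean was 2.12 times as high. The log2 fold change was 1.06 ± 0.11 (adjusted p = 0.000309 from limma), with a 95% interval from 0.82 to 1.30, and 408 of the 12155 genes tested changed by more. With ampicillin and tributyrin it was at 29.5, 30.2 and 38.8 TPM, against 62.7, 64.1 and 68.4 TPM with ampicillin and mock gavage. The tributyrin libraries were all lower, and the ratio of means was 0.505. The log2 fold change was -0.97 ± 0.11 (adjusted p = 0.000857 from limma), with a 95% interval from -1.22 to -0.73. Set directly against vehicle, the tributyrin libraries averaged 32.8 ± 5.16 TPM and the vehicle libraries 30.7 ± 2.84 TPM (SD, n = 3 each). These ranges overlapped, and the log2 fold change of 0.09 ± 0.11 was not called (adjusted p = 0.579 from limma). Its 95% interval from -0.16 to 0.33 leaves room for a small difference in either direction. In bulk RNA of this kind, a change in the share of cells that hold a transcript and a change in the RNA per cell cannot be told apart.

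Cdkn2b (gene ID 12579) lies on chromosome 4 from 89306289 to 89311032 in build GRCm38.p6, on the minus strand, next to Cdkn2a (gene ID 12578, 89274473 to 89294619), with 11669 bases between them. Cdkn2a encodes p16, the best known INK4 inhibitor, and in another reading frame p19ARF, which stabilises p53. It was listed at 0 TPM in 8 of 9 libraries and at 0.0475 TPM in tributyrin replicate 2, so no fold change could be given, and a two-sided exact permutation test of 3 libraries against 3 gave p = 1 in each comparison. That outcome was fixed in advance, since with at most 1 value above 0 every split of the libraries gives the same absolute difference. The smallest two-sided p of such a test, 0.1, could not be reached here, so the test says nothing about Cdkn2a. The nearest genes beyond the pair gave values of their own. Mtap, which salvages methionine, averaged 3.42 ± 0.584 TPM with ampicillin and tributyrin and 1.58 ± 0.126 TPM with ampicillin and mock gavage (SD, n = 3 each). Its log2 fold change for tributyrin was opposite in sign to that of Cdkn2b, at 0.77 ± 0.11 (adjusted p = 0.00227 from limma). Dmrta1, the next gene on the other side, averaged 0.295 ± 0.105 TPM with ampicillin and mock gavage and 0.223 ± 0.0274 TPM with vehicle. The non-coding entry Gm12610, which overlaps Cdkn2b, averaged 0.0296 ± 0.0110 TPM with ampicillin and mock gavage and 0.0501 ± 0.0253 TPM with vehicle, and the strand setting of the quantification is not given in the sources used here.

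The start of Cdkn2b is shown because it is the promoter of the member that moved most, followed by both annotated starts of Cdkn1a, the most abundant member. Promoter windows of 250 bases before to 50 after a start were taken from RefSeq (build GRCm38.p6) and matched 6 of the 7 members, with 9 windows. Capitals mark the GC box GGGCGG, which Sp1 and Krüppel-like factors bind, on either strand, the cAMP response element TGACGTCA, which is its own reverse complement, the TATA motif TATAA on the strand of the gene, and half-sites of the p53 consensus. The windows are chr4:89310983-89311282 on the minus strand for Cdkn2b, chr17:29090729-29091028 on the plus strand for the upstream start of Cdkn1a and chr17:29093519-29093818 on the plus strand for its downstream start.
Cdkn2b: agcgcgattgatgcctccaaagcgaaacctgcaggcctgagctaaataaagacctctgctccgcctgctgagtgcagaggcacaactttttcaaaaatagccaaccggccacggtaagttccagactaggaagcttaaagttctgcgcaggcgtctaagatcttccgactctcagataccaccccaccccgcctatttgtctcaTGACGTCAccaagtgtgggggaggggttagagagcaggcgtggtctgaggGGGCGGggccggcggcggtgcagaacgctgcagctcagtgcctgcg
Cdkn1a upstream start: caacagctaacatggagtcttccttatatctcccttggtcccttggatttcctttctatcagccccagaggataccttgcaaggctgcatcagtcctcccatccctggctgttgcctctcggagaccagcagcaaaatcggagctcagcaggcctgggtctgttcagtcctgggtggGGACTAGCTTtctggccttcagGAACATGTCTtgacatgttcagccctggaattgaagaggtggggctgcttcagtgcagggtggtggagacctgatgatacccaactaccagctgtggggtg
Cdkn1a downstream start: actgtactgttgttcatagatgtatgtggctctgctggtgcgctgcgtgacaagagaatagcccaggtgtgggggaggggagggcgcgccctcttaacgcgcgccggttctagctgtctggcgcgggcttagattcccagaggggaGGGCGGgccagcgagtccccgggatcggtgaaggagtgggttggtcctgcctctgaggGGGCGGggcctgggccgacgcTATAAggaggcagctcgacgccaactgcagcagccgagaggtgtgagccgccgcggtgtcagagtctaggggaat
The Cdkn2b window holds 1 cAMP response element, whose first base is 46 bases before the start, and 1 GC box shortly after the start. The upstream Cdkn1a window holds 2 p53 half-sites and no GC box, and the downstream one holds 2 GC boxes and 1 TATA motif with its first base 25 bases before the start. Of 32851 promoter windows of this length, 35.7% hold a GC box, 17.5% a TATA motif, 8.36% a p53 half-site and 1.79% a cAMP response element. The member with the most GC boxes was Cdkn2d, with 5, and it was called in none of the 3 comparisons. These are matches of letters in a window, not measured binding, and the table gives 1 value a gene, so the starts of Cdkn1a cannot be told apart.

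Cdkn1a, the gene for p21 (gene ID 12575, chromosome 17, 29090979 to 29100722), was lower in both ampicillin groups than in the vehicle group. It was at 211, 220.0 and 226 TPM in the ampicillin libraries with mock gavage, against 301, 279 and 303 TPM in the vehicle libraries. All 3 ampicillin values were below all 3 vehicle values, and the ratio of means was 0.744. The log2 fold change was -0.42 ± 0.05 (adjusted p = 0.000822 from limma), with a 95% interval from -0.54 to -0.31. Tributyrin, a source of butyrate, was not followed by a higher level. Cdkn1a was at 192, 203 and 208 TPM with ampicillin and tributyrin, against 211, 220.0 and 226 TPM with ampicillin and mock gavage. The tributyrin values were all below the mock values, as was so in this direction for 15.3% of the genes tested, and the log2 fold change of -0.12 ± 0.05 was not called (adjusted p = 0.118 from limma). Its 95% interval, which is not adjusted for the number of genes, ran from -0.24 to -0.01. With array weights, which count libraries unequally, this change was called, at -0.14 ± 0.04 (adjusted p = 0.043 from limma). Against vehicle, the tributyrin libraries were lower by a log2 fold change of -0.55 ± 0.05 (adjusted p = 0.000325 from limma), the mean being 201 ± 8.19 TPM with ampicillin and tributyrin and 295 ± 13.3 TPM with vehicle (SD, n = 3 each).

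Some markers of mature surface cells fell beside Cdkn1a with ampicillin, while others rose or were not called. Of 8 absorptive colonocyte markers, 3 fell and 1 rose, with a median log2 fold change of -0.22 beside 0.024 over all genes tested. Of all genes tested, 10.2% were called lower and 11.0% higher there. Krt20, a keratin of differentiated surface cells, averaged 567 ± 22.2 TPM with ampicillin and mock gavage and 1082 ± 179 TPM with vehicle, and Car4, a carbonic anhydrase of the surface epithelium, averaged 124 ± 5.51 TPM with ampicillin and mock gavage and 233 ± 18.3 TPM with vehicle (SD, n = 3 each). Slc9a3, which exchanges sodium for protons, was higher, at 89.7 ± 19.2 TPM with ampicillin and mock gavage and 32.7 ± 8.61 TPM with vehicle. The summed level of the 8 markers was 36485 to 38762 TPM in the ampicillin libraries with mock gavage and 38114 to 40676 TPM in the vehicle libraries, and none of them was at 0. Car1 made up most of these sums, so they say little about the other markers. It averaged 28044 ± 1100 TPM with ampicillin and mock gavage and 28216 ± 1300 TPM with vehicle and was not called (adjusted p = 0.946 from limma). For tributyrin against mock gavage the list held 1 gene that rose and 1 that fell, with a median of 0.19. Car4 rose there by 0.71 ± 0.09 (adjusted p = 0.00176 from limma), while Guca2a, which encodes guanylin, fell by 0.23 (adjusted p = 0.0174 from limma) and Cdkn1a was at -0.12. Their part in the change of Cdkn1a was not tested.

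Cdkn1c, the gene for p57 (gene ID 12577, chromosome 7, 143458339 to 143461059), was higher in both ampicillin groups than in the vehicle group. It is an imprinted gene, expressed mainly from the maternal copy. It was at 9.88, 11.8 and 8.38 TPM in the ampicillin libraries with mock gavage, against 7.41, 5.90 and 5.53 TPM in the vehicle libraries. The groups did not overlap, though the lowest ampicillin value was close to the highest vehicle value. The log2 fold change was 0.59 ± 0.13 (adjusted p = 0.0108 from limma), with a ratio of means of 1.59. With ampicillin and tributyrin it was at 10.2, 10.8 and 10.1 TPM, which lay within the range of the ampicillin libraries with mock gavage (log2 fold change 0.06 ± 0.13, adjusted p = 0.773 from limma). Against vehicle it was higher by 0.65 ± 0.13 in the tributyrin libraries (adjusted p = 0.0067 from limma). Its neighbours in the same imprinted domain were not higher. Kcnq1, a potassium channel gene, averaged 44.2 ± 3.68 TPM with ampicillin and mock gavage and 53.3 ± 0.598 TPM with vehicle and was not called (adjusted p = 0.172 from limma). The transporter gene Slc22a18 was slightly lower with ampicillin, at 155 ± 6.06 TPM against 175 ± 3.65 TPM with vehicle, a log2 fold change of -0.17 ± 0.05 (adjusted p = 0.0423 from limma) that lost its call in 10 of 20 alternatives.

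**Figure D2:**
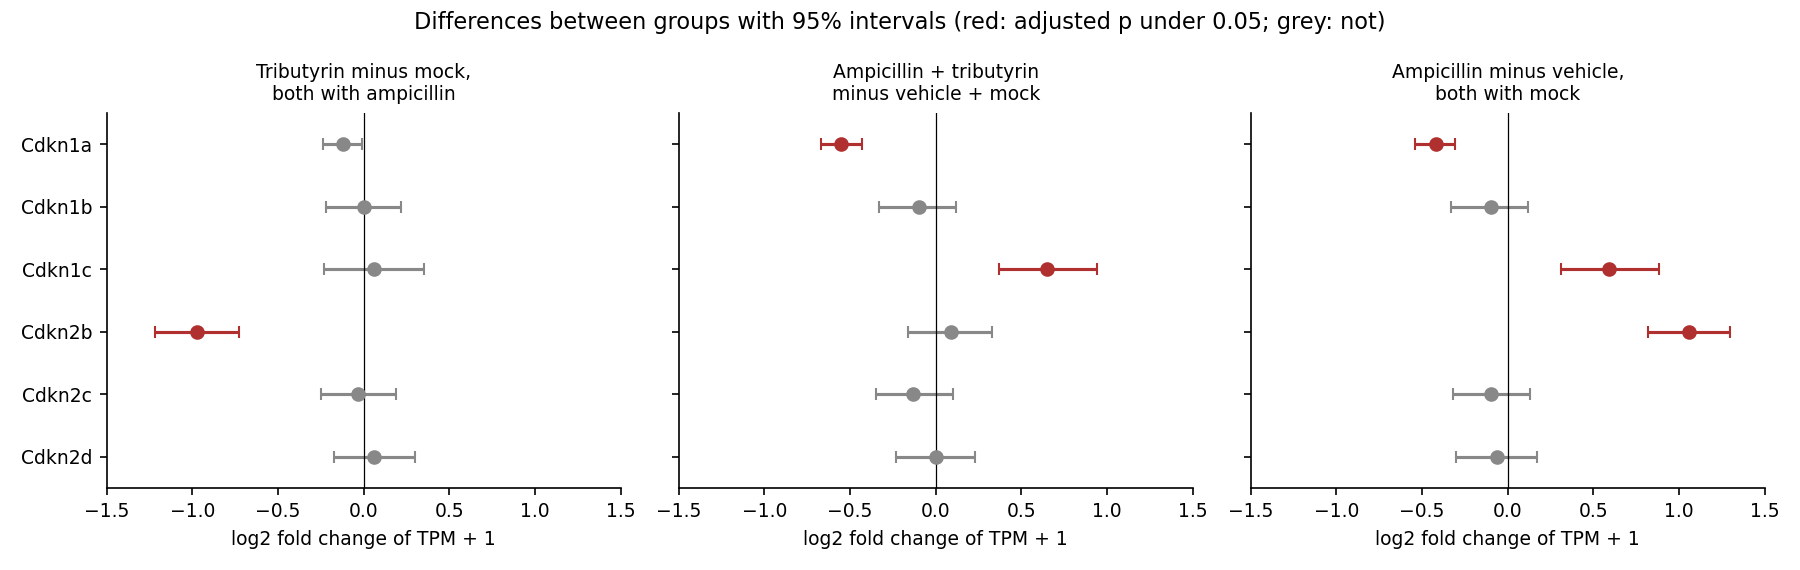
Log2 fold change of TPM + 1 with its 95% interval for the 6 genes tested in each comparison, in red where called. Cdkn2b is called in opposite directions in the left and right panels, at -0.97 and 1.06, and Cdkn1a and Cdkn1c are called only in the panels that set a group against vehicle.

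The other 3 genes tested were called in no comparison. Cdkn1b, the gene for p27, which holds CDK2 in check in resting cells, lay between 33.0 and 45.2 TPM in all 9 libraries. Its log2 fold change was 0.00 ± 0.10 for tributyrin against mock gavage and -0.10 ± 0.10 for ampicillin against vehicle, with 95% intervals from -0.22 to 0.22 and from -0.33 to 0.12. Cdkn2c, the gene for p18, lay between 13.2 and 17.5 TPM, and Cdkn2d, the gene for the INK4 protein p19, between 9.64 and 12.7 TPM. Over the 3 comparisons their 95% intervals reached no lower than -0.35 and no higher than 0.30, so changes as large as those of Cdkn2b lie outside them. Beside the flat Cdkn1b, the non-coding gene Lockd, which starts 3566 bases beyond it and is known in mouse cells to lie in an enhancer of Cdkn1b, rose with tributyrin. Lockd averaged 20.03 ± 2.02 TPM with ampicillin and tributyrin and 11.6 ± 1.65 TPM with ampicillin and mock gavage (SD, n = 3 each), a log2 fold change of 0.75 ± 0.10 (adjusted p = 0.00209 from limma).

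In all, 3 of the 6 members tested were called for ampicillin against vehicle, where 21.3% of all genes tested were called. For tributyrin against mock gavage 1 of 6 was called, where 23.2% of all genes were, and for ampicillin with tributyrin against vehicle 2 of 6 were called, where 28.3% of all genes were. By direction, 2 members were higher and 1 was lower with ampicillin, where 11.0% and 10.2% of all genes were called, and 0 were higher and 1 was lower with tributyrin against mock gavage, where 15.6% and 7.54% were. For ampicillin with tributyrin against vehicle 1 was higher and 1 lower, where 19.1% and 9.21% were. With so few genes, such shares do not set the members apart from the rest of the table. The groups did not overlap for 3 of 6 members in the comparison of ampicillin with vehicle, where 40.8% of all genes tested showed no overlap (22.6% higher and 18.2% lower). For tributyrin with mock gavage this held for 2 of 6, both lower, where 42.6% of all genes showed no overlap (27.3% higher and 15.3% lower). For ampicillin with tributyrin against vehicle it held for 2 of 6, where 41.7% did (28.5% higher and 13.2% lower). The comparisons share libraries, since the ampicillin group with mock gavage stands in 2 of them, and the values of each are given for themselves. Of all calls for tributyrin against mock gavage, 67.5% were higher, and with quantile normalization 47.1% were. For ampicillin with tributyrin against vehicle the same share was 67.5%, and 47.5% after centring on the median log2 ratio.

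Summed over the 7 genes, CDK inhibitor transcripts made up 290.3, 314 and 318 TPM with ampicillin and tributyrin, 347, 358 and 366 TPM with ampicillin and mock gavage and 405, 389 and 404 TPM with vehicle. The sums of the 3 groups did not overlap. The INK4 family held 18.8% to 20.1% of the sum with ampicillin and tributyrin, 24.6% to 26.1% with ampicillin and mock gavage and 14.5% to 15.1% with vehicle. These sums are descriptions, and Cdkn1a and Cdkn2b carry most of their differences. In TPM, the summed INK4 level averaged 59.4 ± 4.37 with ampicillin and tributyrin, 91.4 ± 3.53 with ampicillin and mock gavage and 58.8 ± 0.205 with vehicle (SD, n = 3 each).

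**Figure D3:**
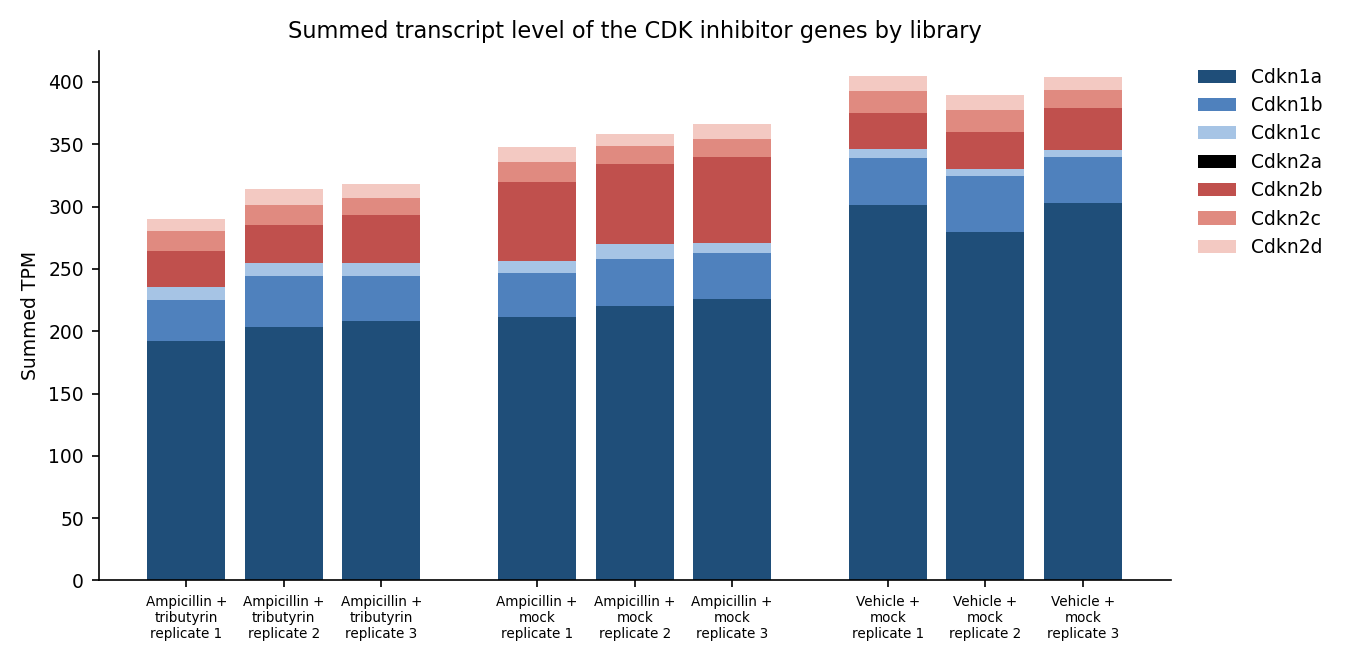
Summed TPM of the 7 CDK inhibitor genes in each library, stacked by gene, with Cip/Kip genes in blue and INK4 genes in red. The tributyrin libraries sum to between 290.3 and 318 TPM and the vehicle libraries to between 389 and 405 TPM, and the Cdkn2b band is widest in the ampicillin libraries with mock gavage.

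The genes whose pattern was most like that of each called member were found by the root mean square difference of centred log2(TPM + 1) values over the 9 libraries, among 11132 named genes. For Cdkn2b these included Gbe1, a glycogen branching enzyme, and Bmper, a secreted protein that binds BMPs, at differences of 0.14 and 0.19, where the Cdkn2b values themselves vary by 0.50. Bmper averaged 0.910 ± 0.171 TPM with ampicillin and tributyrin, 2.17 ± 0.521 TPM with ampicillin and mock gavage and 0.414 ± 0.204 TPM with vehicle, and it passed the filter on low values through the ampicillin group with mock gavage. Gbe1 averaged 8.20 ± 0.475 TPM with ampicillin and tributyrin, 14.6 ± 1.10 TPM with ampicillin and mock gavage and 7.57 ± 0.257 TPM with vehicle (SD, n = 3 each). For Cdkn1a they were Ppp1r3d, a glycogen-targeting subunit of protein phosphatase 1, Pfkl, the liver-type phosphofructokinase, and Fars2, a mitochondrial tRNA synthetase, each at 0.05. Pfkl averaged 247 ± 12.2 TPM with ampicillin and tributyrin, 266 ± 5.50 TPM with ampicillin and mock gavage and 358 ± 20.6 TPM with vehicle (SD, n = 3 each). For Cdkn1c they were Rab37, Mpp3 and Capn8, at 0.09, 0.11 and 0.12. With 3 groups of 3 libraries, many genes share such a pattern, and the list is a description.

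The genes of the G1 cyclins and their kinases hold the direct targets of these inhibitors and a few of their activators. Of 12 such genes, 4 rose and 0 fell for tributyrin against mock gavage, with a median log2 fold change of 0.26 beside 0.049 over all genes tested. Of all genes tested, 15.6% were called higher and 7.54% lower there. Ccnd1, the cyclin partner of CDK4 and CDK6, averaged 34.3 ± 4.68 TPM with ampicillin and tributyrin and 24.2 ± 0.308 TPM with ampicillin and mock gavage (SD, n = 3 each), a log2 fold change of 0.47 ± 0.10 (adjusted p = 0.0122 from limma). Ccnd3, another D-type cyclin, averaged 45.2 ± 3.11 TPM with ampicillin and tributyrin and 32.6 ± 3.20 TPM with ampicillin and mock gavage. Cyclin E1, Ccne1, was called at an adjusted p of 0.0398 from limma, but in 9 of 20 alternatives only. Cdk2, whose complexes Cip/Kip proteins bind above all, was the other gene that rose. It averaged 21.5 ± 1.73 TPM with ampicillin and tributyrin and 17.2 ± 0.465 TPM with ampicillin and mock gavage. Its log2 fold change was 0.31 ± 0.06 (adjusted p = 0.0105 from limma). The kinases that INK4 proteins bind were not called in any comparison, with Cdk4 at 144 ± 6.76 TPM and Cdk6 at 6.17 ± 1.17 TPM with ampicillin and tributyrin, and at 149 ± 1.80 TPM and 6.48 ± 0.266 TPM with ampicillin and mock gavage. For ampicillin against vehicle 1 of the 12 genes fell and 0 rose, where 10.2% of all genes tested were called lower and 11.0% higher. That gene was Ccnd1, at 24.2 ± 0.308 TPM with ampicillin and mock gavage and 31.1 ± 3.01 TPM with vehicle, and its call (adjusted p = 0.0427 from limma) held in 12 of 20 alternatives.

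Downstream of the cyclins, some genes of DNA replication and division rose with tributyrin and most were not called. Of 21 S phase and mitosis genes, 6 rose and 0 fell for tributyrin against mock gavage, with a median log2 fold change of 0.30 beside 0.049 over all genes tested, where 15.6% were called higher. Mki67, a marker of dividing cells, was not called, at 30.5 ± 5.81 TPM with ampicillin and tributyrin and 22.9 ± 2.88 TPM with ampicillin and mock gavage. The number of the 21 that rose was between 4 and 16 over 20 alternatives, with 13 without tributyrin replicate 3. Mcm3, a subunit of the replicative helicase, averaged 40.5 ± 3.97 TPM with ampicillin and tributyrin and 29.2 ± 2.18 TPM with ampicillin and mock gavage, and Birc5, the survivin gene of dividing cells, averaged 86.7 ± 5.16 TPM with ampicillin and tributyrin and 62.9 ± 7.67 TPM with ampicillin and mock gavage (SD, n = 3 each). Of 13 pocket protein, E2F and DP genes, 3 rose and 1 fell, where 15.6% of all genes tested were called higher and 7.54% lower. Tfdp1, a partner of E2F factors, averaged 69.2 ± 8.62 TPM with ampicillin and tributyrin and 51.4 ± 0.513 TPM with ampicillin and mock gavage, and its relative Tfdp2 fell to 14.5 ± 1.30 TPM with ampicillin and tributyrin, against 21.01 ± 0.489 TPM with ampicillin and mock gavage. Of 8 genes of the ubiquitin ligases that degrade Cip/Kip proteins, 3 rose and 0 fell, and 1 rose without ampicillin replicate 2. These were Dtl, at 0.59 ± 0.08, Skp2, at 0.48 ± 0.11, and Cks1b, at 0.24 ± 0.07 on the log2 scale. For ampicillin against vehicle, 1 of the 21 S phase and mitosis genes fell and 0 rose. Of all genes tested, 10.2% were called lower and 11.0% higher there. Of the 21, 3 were lower without vehicle replicate 3 and 2 were lower without ampicillin replicate 1 or tributyrin replicate 3.

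**Figure D4:**
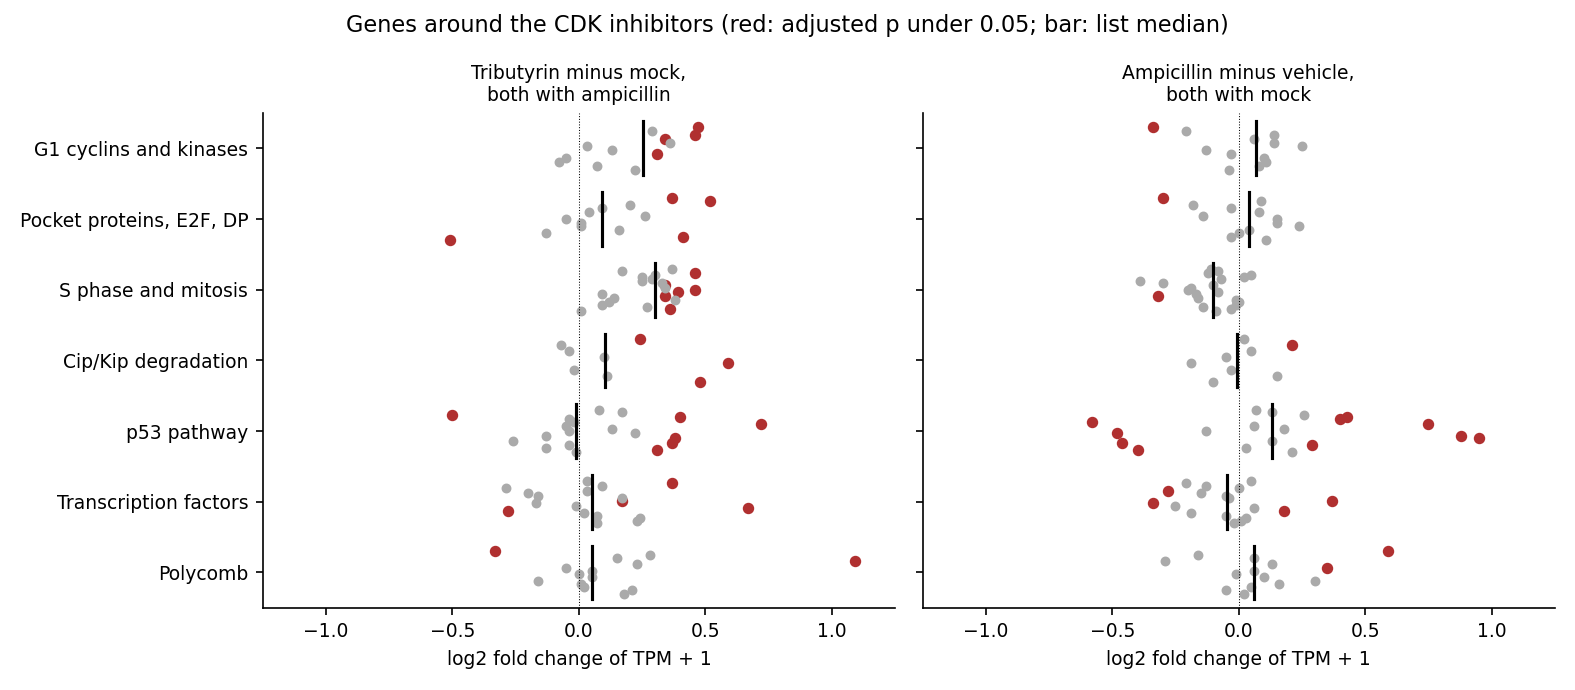
Log2 fold change of TPM + 1 of each tested gene in 7 lists around the CDK inhibitors, for tributyrin against mock gavage (left) and ampicillin against vehicle (right), with called genes in red and list medians as bars; the Polycomb list includes the demethylase Kdm6b. The S phase and mitosis genes lie at or above 0 with tributyrin, with a median of 0.30, and have a median of -0.10 with ampicillin.

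Among 18 transcription factors known to bind or set CDK inhibitor genes, 3 rose and 1 fell for tributyrin against mock gavage. Of all genes tested, 15.6% were called higher and 7.54% lower there, and 11.0% and 10.2% for ampicillin against vehicle. The counts of this list and of the Polycomb list below are to be read beside these shares. Myc, whose protein is known to repress Cdkn2b and Cdkn1a, averaged 52.5 ± 9.40 TPM with ampicillin and tributyrin and 32.3 ± 1.07 TPM with ampicillin and mock gavage (SD, n = 3 each), a log2 fold change of 0.67 ± 0.11 (adjusted p = 0.00443 from limma). For ampicillin against vehicle Myc was at 32.3 ± 1.07 TPM with ampicillin and 31.0 ± 1.68 TPM with vehicle and was not called (adjusted p = 0.773 from limma). For that comparison 2 of the 18 rose and 2 fell, among them Klf6, a Krüppel-like factor known to activate the human p21 gene, at 141 ± 6.74 TPM with ampicillin and mock gavage and 109 ± 4.65 TPM with vehicle. Smad2, a transducer of TGF-beta, was lower with tributyrin, at 7.22 ± 0.350 TPM, against 8.99 ± 0.155 TPM with ampicillin and mock gavage. In the vehicle libraries Smad2 averaged 7.84 ± 0.0783 TPM. It was the other factor that rose with ampicillin, by 0.18 ± 0.05 on the log2 scale (adjusted p = 0.0415 from limma). A list of 14 genes around the Polycomb system, which is known to silence the Cdkn2a-Cdkn2b locus, also held Kdm6b, a demethylase that removes the Polycomb mark. Of the 14, 2 rose and 0 fell with ampicillin, and Kdm6b was not called. Bmi1, the best known of the Polycomb genes, rose as Cdkn2b did, at 14.2 ± 1.33 TPM with ampicillin and mock gavage and 9.13 ± 0.722 TPM with vehicle (log2 fold change 0.59 ± 0.08, adjusted p = 0.00123 from limma). For tributyrin against mock gavage 1 of the 14 rose and 1 fell. Cbx6, a chromobox gene of the Polycomb system, averaged 4.29 ± 0.648 TPM with ampicillin and tributyrin and 1.47 ± 0.194 TPM with ampicillin and mock gavage (log2 fold change 1.09 ± 0.11, adjusted p = 0.000589 from limma). With tributyrin Bmi1 was at 11.1 ± 0.450 TPM, a log2 fold change of -0.33 ± 0.08 against mock gavage (adjusted p = 0.0185 from limma), a call lost in 2 of 20 alternatives.

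Some genes of the p53 pathway rose, some fell and others were not called. Trp53, the gene for p53, and Mdm2 were called in no comparison. Their log2 fold changes were 0.03 ± 0.10 and 0.06 ± 0.07 for ampicillin against vehicle. For tributyrin against mock gavage they were -0.13 ± 0.10 and -0.05 ± 0.07. Of 19 tested genes of the p53 pathway other than Cdkn1a, 6 rose and 4 fell for ampicillin against vehicle, and 2 fell without vehicle replicate 3 or without ampicillin replicate 2. Of all genes tested, 11.0% were called higher and 10.2% lower there, and 15.6% and 7.54% for tributyrin against mock gavage. Pmaip1, the gene for the cell death protein Noxa, averaged 19.4 ± 1.39 TPM with ampicillin and mock gavage and 9.65 ± 1.68 TPM with vehicle (log2 fold change 0.95 ± 0.11, adjusted p = 0.000728 from limma). Plk2, a kinase, averaged 11.2 ± 0.561 TPM with ampicillin and mock gavage and 5.66 ± 0.328 TPM with vehicle. Of the 4 that fell, Gadd45a changed most on the log2 scale, by -0.58 ± 0.10 (adjusted p = 0.00516 from limma). It averaged 70.5 ± 9.73 TPM with ampicillin and mock gavage and 105 ± 7.59 TPM with vehicle. For tributyrin against mock gavage 5 rose and 1 fell, and the number that rose was 1 to 3 when any 1 library of these groups was left out, while 3 fell without tributyrin replicate 1. Bbc3, the gene for the cell death protein PUMA, was the one that fell, by 0.50 on the log2 scale, and Gdf15, a stress-induced secreted factor, was at 46.2 ± 10.3 TPM with ampicillin and tributyrin and 27.3 ± 1.87 TPM with ampicillin and mock gavage.

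Stress genes and transcripts of other cells moved in the same comparisons, and their part in the changes above was not tested. Of 20 immediate early and dissociation stress genes, of which Cdkn1a is not one, 9 rose and 0 fell with ampicillin, 11 rose and 0 fell with tributyrin, and 19 rose and 0 fell for ampicillin with tributyrin against vehicle. Of all genes tested, 11.0%, 15.6% and 19.1% were called higher in these comparisons. Their summed level was 6474 to 7135 TPM with ampicillin and tributyrin, 4861 to 5117 TPM with ampicillin and mock gavage and 3753 to 4209 TPM with vehicle. Of 7 tested markers of T and intraepithelial lymphocytes, 3 rose with tributyrin and 0 fell. Of these 3, Gzma (3.82 ± 0.980 TPM with ampicillin and tributyrin, 0.468 ± 0.274 TPM with ampicillin and mock gavage) and Cd8a (1.84 ± 0.436 TPM and 0.937 ± 0.312 TPM in the same groups) passed the filter on low values through the tributyrin group, where they are high. The count is therefore no independent support. Of the 7, only 1 rose when any 1 of ampicillin replicates 1 and 2 or tributyrin replicates 1 and 2 was left out, against 6 without tributyrin replicate 3. All 9 markers of that list summed to 27.7 to 50.2 TPM with ampicillin and tributyrin, 15.2 to 24.9 TPM with ampicillin and mock gavage and 18.6 to 22.2 TPM with vehicle. Both tested erythroid markers rose with tributyrin, and the 4 in the table summed to 94.4 to 134 TPM with ampicillin and tributyrin and 13.4 to 36.6 TPM with ampicillin and mock gavage. Of 9 tested crypt stem cell markers, 3 fell with ampicillin, where 10.2% of all genes tested were called lower. Among them was Lgr5, at 5.98 ± 0.517 TPM with ampicillin and mock gavage and 9.98 ± 0.938 TPM with vehicle. Olfm4, of the same list, was under the filter and not tested. It was listed at 0 in all 6 ampicillin libraries, with tributyrin or mock gavage. In the vehicle libraries it averaged only 1.21 ± 1.33 TPM, with an SD above the mean. No marker of the lists named here was at 0 in every library.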

How the data were processed

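RNA was measured in 9 libraries of caecal epithelial cells, with groups and replicate numbers taken from the titles. The other 7 of the 16 samples, of chromatin and input DNA, were not analysed here. The authors deposited TPM for each gene in every library. Salmon 0.8.2, DESeq2 1.20.0 and mm10 are named in the submitters' processing notes, without saying which step used which. The annotation and the strand setting were not given in the sources at hand. TPM is relative and keeps no depth, so no count model and no interval for counting error was used.

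All 7 members matched a RefSeq table of GRCm38.p6, the same build as mm10, by gene ID. Genes with a mean of at least 1 TPM over the 9 libraries were tested, 12155 in all, as log2(TPM + 1). All 9 libraries entered one limma model (version 3.58.1, R 4.3.3) that gave each group its own mean, with moderated variances, a trend on mean level and no replicate block. The fit was checked on simulated data. Tests were two-sided, with an adjusted p under 0.05 as the threshold, and intervals are limma's 95% intervals of a single gene.

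Members and gene lists were chosen with earlier results of these data known. Named genes are the 7 members, up to 3 called genes a list and comparison, the 3 genes most like each called member and the neighbours of members on the chromosome, with Cdk4, Cdk6, Mki67, Kdm6b, the markers listed at 0 and, for ampicillin against vehicle, Myc added after their values were seen. One gene that this rule names is not reported here. The alternatives were pseudocounts, filters, scalings, weights, a replicate block, 2-group fits and leaving out each library. Plots were made in Python 3.11.15 with matplotlib 3.10.9.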

Additional observations from a re-analysis of the deposited data

How the results depend on the processing

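In each of 20 alternatives, the calls of Cdkn1a, Cdkn1c and Cdkn2b for ampicillin against vehicle, of Cdkn2b for tributyrin against mock gavage and of Cdkn1a and Cdkn1c for ampicillin with tributyrin against vehicle kept their direction and their side of the threshold. Cdkn1c came closest to it, with an adjusted p of up to 0.0414 from limma for ampicillin against vehicle. The replicate block changed none of these calls and gave 1.06, -0.42 and 0.59 for Cdkn2b, Cdkn1a and Cdkn1c on the log2 scale for ampicillin against vehicle. Libraries with the same replicate number correlated at -0.050 to 0.108 in their deviations from the group means, with a mean of 0.0309. Those with different numbers correlated at -0.117 to 0.0748, with a mean of -0.0155. Of 9 libraries, 6 correlated best with their own number. Correlations this weak do not settle whether the numbers pair the libraries. With array weights 2 members were called for tributyrin against mock gavage, the second being Cdkn1a at -0.14, and 2956 genes were called higher. Quantile normalization gave 1647 and centring on the median log2 ratio 1509 genes called lower there, and centring gave 1722 lower for ampicillin with tributyrin against vehicle, the median of all genes shifting by at most 0.07 on the log2 scale.

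Signs turned only for changes near 0 that were never called. For tributyrin against mock gavage Cdkn1c stood at -0.01 with quantile normalization and 0.00 with array weights, and Cdkn2c at 0.04 with array weights. For ampicillin with tributyrin against vehicle Cdkn2b stood at -0.03 with array weights, and Cdkn2d at -0.08 with quantile normalization, -0.03 when rescaled without Mir6236 and -0.07 after centring. Leaving out each library in turn gave -0.12 to 0.03 for Cdkn2d with ampicillin. With tributyrin against mock gavage it gave -0.08 to 0.08 for Cdkn1b, -0.05 to 0.17 for Cdkn1c, -0.09 to 0.05 for Cdkn2c and -0.02 to 0.15 for Cdkn2d. For ampicillin with tributyrin against vehicle it gave -0.04 to 0.16 for Cdkn2b and -0.06 to 0.08 for Cdkn2d. The genes called over the whole table then numbered 786 to 1467 higher for ampicillin against vehicle, with 786 without ampicillin replicate 2 and 880 without ampicillin replicate 3, 1019 to 2211 higher and 474 to 915 lower for tributyrin against mock gavage, and 1318 to 2792 higher and 743 to 1001 lower for ampicillin with tributyrin against vehicle, where both lowest counts came without tributyrin replicate 2. For tributyrin against mock gavage the counts that moved most were 1130 higher without ampicillin replicate 1, 1185 higher and 474 lower without ampicillin replicate 2, and 1019 higher and 555 lower without tributyrin replicate 2. The cause was not tested. With TPM alone, depth cannot be assessed, and the 3 libraries a group limit what can be seen of small changes.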
